A study of Homo sapiens with 6 samples.

Results

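The genes described here are 10 feedback regulators of MAP kinase signalling, most of which restrain the RAS-ERK pathway: the dual-specificity phosphatase genes DUSP1, DUSP4, DUSP5, DUSP6 and DUSP10, the Sprouty genes SPRY1, SPRY2 and SPRY4, and the SPRED genes SPRED1 and SPRED2. They were taken by gene symbol, and all 10 were found among the 56638 symbols of the count tables. The 10 genes and the gene lists set beside them were chosen with earlier results of these data known. The libraries were made from total RNA of DLD-1, a widely used human colorectal cancer cell line, at passages 16 to 19. One group of 3 libraries received a control siRNA. The other group of 3 received an siRNA that targets the long non-coding RNA lncSLCC1, found in the tables as RP11-400N13.2. Every comparison is lncSLCC1 siRNA against control siRNA in this single line. The sources used here give neither the time after transfection nor the sequence or number of the siRNAs.

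ERK is the last kinase of a cascade that runs from growth factor receptors through RAS, RAF and MEK, and it switches on genes that restrain the same cascade. DUSP proteins remove phosphate from the activation loop of MAP kinases. Sprouty proteins act between receptors and RAF, and SPRED proteins bring the RAS inhibitor neurofibromin to the membrane. Transcripts of many of these genes rise when ERK is active and fall when it is inhibited, so in colorectal cancer cells they are commonly read as a record of pathway output.

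After lncSLCC1 siRNA 4 of the 10 genes were lower, namely DUSP1, DUSP5, DUSP6 and SPRY4, and 0 were higher, by edgeR's quasi-likelihood test at an adjusted p under 0.05. The 4 falls were of like size, between 0.47 and 0.55 on the log2 scale. Of all 15242 genes tested, 7.39% were called lower and 6.46% higher. In 7 of the 10 genes every lncSLCC1 siRNA library lay below every control library in CPM (reads scaled to the library's total of gene-assigned reads), which was the case for 14.5% of genes tested. SPRED1 and SPRED2 overlapped between the groups. DUSP10 lay above the controls in CPM, but its groups overlapped with the trimmed-mean library sizes that the test used. The median log2 fold change of the 10 genes was -0.35, against 0.0072 for all genes tested. The cells are measured in bulk, so fewer cells with a transcript and less of it per cell cannot be told apart.

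Before the genes are taken in turn, the libraries need a short description. They held 12572277 to 15568075 reads assigned to genes, and all 10 genes had at least 73 reads in every library. The targeted RP11-400N13.2 stood at 4.91 to 9.19 CPM in the controls and 1.69 to 2.69 CPM after lncSLCC1 siRNA. Of 10 epithelial and colorectal marker genes 8 had at least 1 CPM, and their summed level overlapped between the groups (5754 to 6819 CPM in controls, 6053 to 6356 CPM after lncSLCC1 siRNA). KRT8 made up most of that sum (3622 CPM on average in controls), and single markers moved apart: VIL1, KRT20 and CDH1 were at 192%, 124% and 123% of control with every lncSLCC1 siRNA library above the controls, and CDX2 was at 86.4% with every one below. Their part in the results was not tested. The 3 leukocyte and the 3 endothelial markers summed to 0.321 CPM or less in every library, with PECAM1 and KDR at 0. The 4 fibroblast markers, with DCN at 0, summed to 2.20 to 2.63 CPM in controls and 2.92 to 3.26 CPM after lncSLCC1 siRNA. The controls were the more scattered group, and control replicate 1 stood farthest from the others: the chi-square statistic per gene was 15.9 and 28.0 against control replicates 2 and 3, and 1.79 to 1.90 between lncSLCC1 siRNA libraries. Nothing in the labels tells separate cultures from repeat libraries, so each p-value reflects only the scatter among these 6 libraries, which may be technical.

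The sequences just upstream of DUSP1, DUSP6 and SPRY4 are shown because these 3 genes were called lower together and have an entry in the RefSeq promoter table of assembly GRCh38.p14, in which 8 of the 10 genes were found. DUSP4 and DUSP5 are missing there. Each run holds the 250 bases before the annotated start on the gene's own strand, which is the minus strand for all 3, at chr5:172771196-172771445 for DUSP1, chr12:89352502-89352751 for DUSP6 and chr5:142324248-142324497 for SPRY4. Capitals mark matches, on either strand, to an ETS word (CGGAAG), a cyclic AMP response element word (TGACGT), an AP-1 word (TGAGTCA or TGACTCA) or an E-box word (CACGTG).
DUSP1: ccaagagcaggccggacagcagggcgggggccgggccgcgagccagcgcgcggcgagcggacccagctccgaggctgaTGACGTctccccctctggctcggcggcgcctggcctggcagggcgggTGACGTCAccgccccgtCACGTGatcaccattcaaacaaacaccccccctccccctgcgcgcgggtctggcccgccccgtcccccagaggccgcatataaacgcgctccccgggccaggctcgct
DUSP6: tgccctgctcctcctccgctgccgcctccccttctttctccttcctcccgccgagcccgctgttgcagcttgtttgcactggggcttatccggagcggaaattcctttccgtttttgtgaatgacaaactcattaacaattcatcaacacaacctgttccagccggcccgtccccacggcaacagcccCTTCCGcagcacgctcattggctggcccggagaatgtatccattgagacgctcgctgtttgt
SPRY4: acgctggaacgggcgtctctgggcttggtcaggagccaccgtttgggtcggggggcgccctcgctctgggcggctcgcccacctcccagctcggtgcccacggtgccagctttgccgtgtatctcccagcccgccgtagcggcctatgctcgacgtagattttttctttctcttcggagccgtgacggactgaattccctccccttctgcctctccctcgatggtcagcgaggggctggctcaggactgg

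The 3 upstream sequences had no searched word in common. DUSP1 held 3 matches to TGACGT, of which the middle and the last overlap on opposite strands, and 1 to CACGTG. DUSP6 held 1 match to CGGAAG on the opposite strand, 57 to 62 bases before the start, and SPRY4 held none of the words. Among all 35116 promoters of the same length, 16.5% held CGGAAG, 7.10% TGACGT, 4.20% an AP-1 word and 6.35% CACGTG, and 29.8% held at least 1 of these. Over the 13 annotated starts of the 8 genes searched, 3 starts held any of the words: those of DUSP1 and DUSP6 and 1 start of SPRY1. A match is a run of letters, and whether a factor binds it was not measured.

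DUSP6, which encodes the cytoplasmic phosphatase that acts mainly on ERK, fell by 0.47 on the log2 scale. Controls 1, 2 and 3 had 143, 170.1 and 170.1 CPM, and the lncSLCC1 siRNA libraries had 128, 119 and 117 CPM in the same order. The lowest control library, replicate 1, was still above the highest lncSLCC1 siRNA library. The mean went from 161 ± 15.9 to 122 ± 5.77 CPM (SD, n = 3 each), or 75.6% of control. The fitted log2 fold change, which uses trimmed-mean (TMM) library sizes, was -0.47 (edgeR adjusted p = 0.0078, SE 0.084, 95% confidence interval -0.66 to -0.28), and it was -0.40 with library totals. DUSP6 is overlapped on the opposite strand by AC024909.2 in GENCODE release 29, and without a stated strand setting reads of such a partner cannot be told apart.

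DUSP5 and DUSP1 encode nuclear phosphatases that are induced early after growth factor stimulation, DUSP5 acting on ERK and DUSP1 on ERK, p38 and JNK. DUSP5 had 53.3, 49.7 and 44.7 CPM in the controls, against 38.1, 38 and 34.8 CPM after lncSLCC1 siRNA. The groups were clear of each other, and DUSP5 fell by 0.48 on the log2 scale (SE 0.107, adjusted p = 0.0179 by edgeR), to 75.0% of its control mean. DUSP1 was at 12.8, 11.8 and 12.1 CPM in controls and at 9.36, 9.63 and 8.59 CPM after lncSLCC1 siRNA. It too fell by 0.48 (SE 0.121, adjusted p = 0.03 by edgeR), and its control libraries differed from each other by less than its groups did. The count tables also list pseudogenes of DUSP5, so reads shared with them make its value uncertain.

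DUSP4, another nuclear phosphatase gene of this kind and the lowest of the 10 genes per length, did not pass the test. Its CPM was 6.25, 6.42 and 7.17 in controls and 6.03, 5.96 and 5.81 after lncSLCC1 siRNA. The groups did not overlap but came close, and the log2 fold change was -0.22 (edgeR adjusted p = 0.27, 95% confidence interval -0.52 to 0.07). The interval holds both no difference and a fall as large as those of DUSP1 and DUSP5.

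DUSP10 encodes a phosphatase that acts on p38 and JNK rather than ERK. It had 13.4, 12.5 and 11.9 CPM in the controls, against 14.4, 15.5 and 14.2 CPM after lncSLCC1 siRNA. By library totals all 3 lncSLCC1 siRNA libraries lay above the controls. With TMM library sizes control replicate 1 rose to 14.2 CPM and the groups overlapped. The log2 fold change was 0.15 (edgeR adjusted p = 0.394, 95% confidence interval -0.11 to 0.41), and it was positive under all 15 alternatives, at 0.098 to 0.23. Reads on DUSP6 per read on DUSP10, a ratio that needs no library size, were 10.7, 13.6 and 14.3 in control replicates 1 to 3 and 8.88, 7.72 and 8.25 in the lncSLCC1 siRNA replicates. All 3 lncSLCC1 siRNA libraries had a lower ratio than the controls. The ratio was chosen after the values were seen and was not tested.

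**Figure D1:**
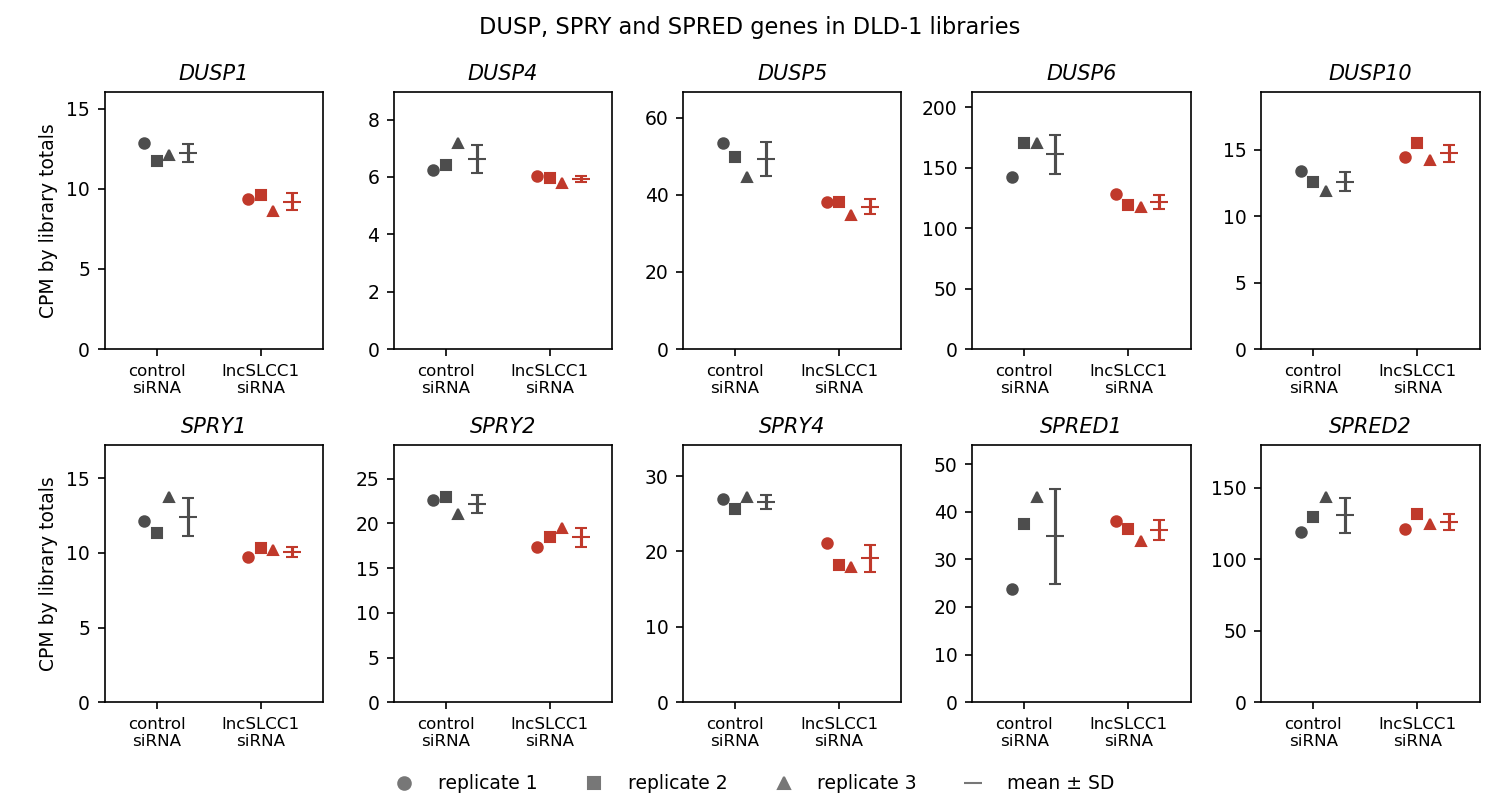
CPM by library totals (vertical axes, from 0) of each of the 10 genes in 3 control siRNA libraries (grey) and 3 lncSLCC1 siRNA libraries (red), with marker shapes for replicates and bars for mean ± SD. DUSP6 runs from 117 to 128 CPM after lncSLCC1 siRNA against 143 to 170.1 CPM in controls. DUSP10 lies above its controls here, but its groups overlap with TMM library sizes. SPRED1 is low in control replicate 1 at 23.9 CPM.

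Among the Sprouty genes all 3 had every lncSLCC1 siRNA library below every control, as 14.5% of all genes tested had, and SPRY4 passed the test. SPRY4, whose product inhibits RAS activation and binds RAF, was at 27.0, 25.6 and 27.3 CPM in controls and at 21.2, 18.1 and 17.9 CPM after lncSLCC1 siRNA. It fell to 71.7% of its control mean, with a log2 fold change of -0.55 (edgeR adjusted p = 0.0125, SE 0.110, 95% confidence interval -0.79 to -0.30). This was the largest fall among the 10 genes by fitted fold change, and its interval overlapped those of DUSP1, DUSP5 and DUSP6.

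SPRY2, whose product binds the ubiquitin ligase CBL and the adaptor GRB2, was at 22.6, 23.0 and 21.1 CPM in controls and at 17.4, 18.5 and 19.5 CPM after lncSLCC1 siRNA. Its log2 fold change of -0.34 (95% confidence interval -0.58 to -0.10) did not pass the threshold (adjusted p = 0.0606 by edgeR). SPRY1 was at 12.1, 11.3 and 13.8 CPM in controls and at 9.69, 10.4 and 10.2 CPM after lncSLCC1 siRNA (log2 fold change -0.37, edgeR adjusted p = 0.0729, 95% confidence interval -0.64 to -0.09). Both had an unadjusted p under 0.05, and their intervals overlapped that of SPRY4. SPRY3, the Sprouty gene outside the 10, was low at 2.15 to 4.13 CPM in controls and 3.14 to 3.66 CPM after lncSLCC1 siRNA, and its log2 fold change of -0.01 did not pass the test.

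SPRED2 and SPRED1 did not pass the test. SPRED2 had 119, 129 and 144 CPM in the controls, against 121, 132 and 125 CPM after lncSLCC1 siRNA. The ranges overlapped almost fully (log2 fold change -0.12, edgeR adjusted p = 0.341, 95% confidence interval -0.31 to 0.06). SPRED1 had 23.9, 37.4 and 43.2 CPM in the controls, against 38.03, 36.4 and 33.8 CPM after lncSLCC1 siRNA. Control replicate 1 was the lowest of the 6 libraries and control replicate 3 the highest, and the log2 fold change was -0.01 (edgeR adjusted p = 0.973, 95% confidence interval -0.40 to 0.37).

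The low SPRED1 value in control replicate 1 is set here beside the length and GC content of its transcript, and its cause was not tested. SPRED1 has the longest transcript of the 10 genes, at 7780 bases, and the lowest GC content, at 38.9%. A smooth trend of library deviations on GC content and length, fitted over genes, stood at -0.47 (log2) for a transcript like SPRED1 in control replicate 1, at 0.0054 and 0.15 in control replicates 2 and 3, and at 0.076 to 0.13 in the lncSLCC1 siRNA libraries. For DUSP6, SPRY1, SPRY4, DUSP4, DUSP10 and SPRED2 the same trend stayed within -0.071 to 0.040 in all 6 libraries. For DUSP1, DUSP5 and SPRY2 it was 0.19, 0.17 and 0.063 in control replicate 1. With this trend removed SPRED1 stood at a log2 fold change of -0.18 (adjusted p = 0.089 by edgeR), and without control replicate 1 at -0.21 (adjusted p = 0.0677). DUSP1, DUSP5 and SPRY2 stood at -0.41, -0.44 and -0.32 with the trend removed, against -0.48, -0.48 and -0.34 in the main fit. SPRY4 reads per SPRED2 read, again a ratio within each library that was chosen after the values were seen and not tested, were 0.227, 0.198 and 0.19 in control replicates 1 to 3 and 0.175, 0.138 and 0.144 in the lncSLCC1 siRNA replicates, with no overlap.

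The number of the 10 genes called varied most when 1 library was left out. Of the 10 genes 4 were called lower by DESeq2, by limma-voom, with library totals and with the replicate number as a block, and 6 with GC content and length offsets, where SPRY2 (adjusted p = 0.0146) and SPRY1 (0.0279) were added. The number was 7 without control replicate 1, 1 without control replicate 2, 5 without control replicate 3, 2 without lncSLCC1 siRNA replicate 1, and 0 without lncSLCC1 siRNA replicate 2 or 3. The number called lower over all genes moved too. In the same order it was 2431 of 15646, 352 of 15607, 2088 of 15628, 318 of 15557, 249 of 15532 and 244 of 15593. It was 2665 of 15242 with the offsets and 1126 of 15242 in the main fit. Without lncSLCC1 siRNA replicate 2 or 3, 6 of the 10 genes were lower at an unadjusted p under 0.05 by edgeR. Without lncSLCC1 siRNA replicate 1 the number was 4, and with the offsets it was 8. With all libraries in the main fit it was 6, where 2489 of all 15242 genes were lower and 2330 higher at that level. The count over all genes at that level is not given for fits with 1 library left out. The call of DUSP6 was lost when control replicate 2 (adjusted p = 0.0517) or lncSLCC1 siRNA replicate 2 (0.0644) or 3 (0.0645) was left out, and SPRY4 without lncSLCC1 siRNA replicate 2 (0.0854) or 3 (0.0816). DUSP5 and DUSP1 lost theirs without control replicate 2 (0.0756 and 0.0773) and without lncSLCC1 siRNA replicate 1 (0.0743 and 0.107), 2 (0.0839 and 0.105) or 3 (0.104 and 0.137). SPRY2 was called without control replicates 1 (0.0211) or 3 (0.0316), and SPRY1 (0.0334) and SPRED2 (0.048, log2 fold change -0.17) without control replicate 1. Over all 15 alternatives the log2 fold change stayed between -0.53 and -0.40 for DUSP6, -0.57 and -0.40 for DUSP5, -0.52 and -0.41 for DUSP1, and -0.63 and -0.48 for SPRY4.

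Per transcript length, DUSP6 and SPRED2 were the most abundant of the 10 transcripts and DUSP4 the least. RPKM is CPM divided by the length in kilobases of the longest annotated transcript, with GENCODE's basic set taken first. DUSP6 had 32.4 to 38.7 RPKM in controls and SPRED2 29.03 to 35.1 RPKM, ranges that overlapped. After lncSLCC1 siRNA SPRED2 had 29.5 to 32.1 RPKM and DUSP6 26.7 to 29.2 RPKM, but this order depends on the length used: with the union of annotated exons the means were 24.4 RPKM for SPRED2 and 26.3 RPKM for DUSP6. DUSP5 followed at 17.5 to 20.9 RPKM in controls and 13.6 to 14.9 RPKM after lncSLCC1 siRNA, and SPRY2 at 7.78 to 8.49 and 6.41 to 7.20 RPKM. DUSP1 came next with a control mean of 6.07 ± 0.273 RPKM, apart from both neighbours, then SPRY4 (5.39 ± 0.183), SPRY1 (4.75 ± 0.480), DUSP10 (4.71 ± 0.280) and SPRED1 (4.48 ± 1.27; SD, n = 3 each), each overlapping with the next, and last DUSP4 (1.19 ± 0.0882). With union lengths the first 5 and the last kept their places in controls, and SPRY4 and SPRY1 moved below SPRED1.

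Summed over the 5 phosphatase genes the level was 65.8 to 69.8 RPKM in controls and 50.9 to 55.2 RPKM after lncSLCC1 siRNA, and over the 3 Sprouty genes 18.004 to 18.6 and 14.4 to 14.7 RPKM. The SPRED pair gave 32.1 to 40.6 and 34.4 to 36.8 RPKM, so these sums overlapped while those of the other families did not. Within the phosphatase sum DUSP6 took 49.3% to 56.9% in controls and 50.6% to 52.8% after lncSLCC1 siRNA. The share of DUSP10 went from between 6.54% and 7.60% to between 9.78% and 10.8%, with no overlap. These shares describe the libraries and were not tested.

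**Figure D2:**
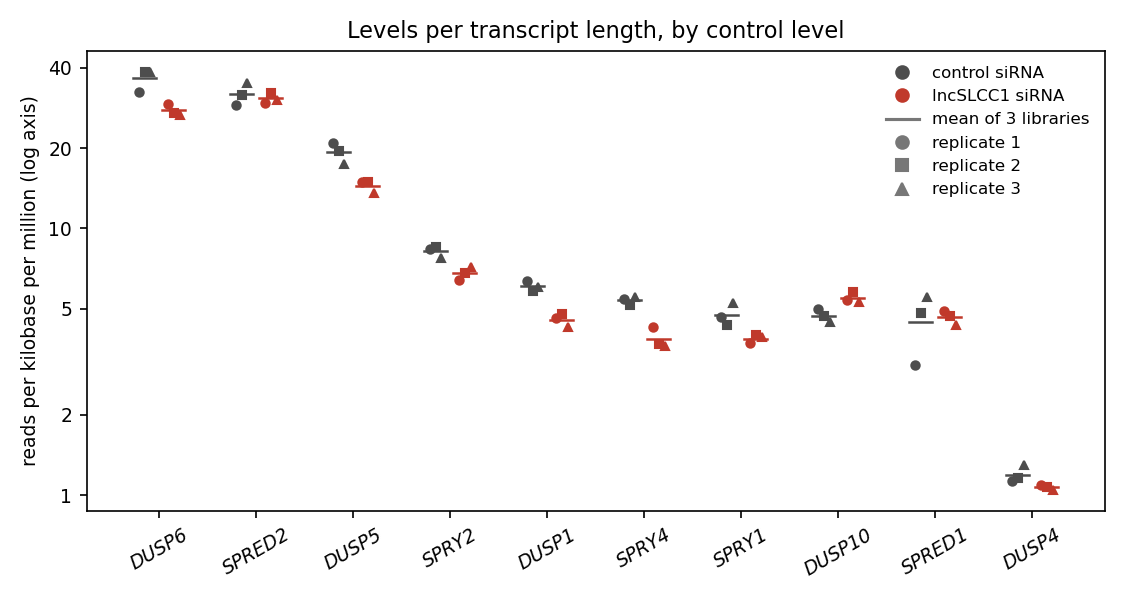
RPKM on a log axis for the 10 genes, ordered by mean control level, with 3 control siRNA libraries in grey, 3 lncSLCC1 siRNA libraries in red and a line at each mean. DUSP6 leads in controls at 32.4 to 38.7 RPKM and has 26.7 to 29.2 RPKM after lncSLCC1 siRNA, where it lies under SPRED2 with these lengths and above it with union lengths, while DUSP4 stays near 1 RPKM.

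The other dual-specificity phosphatase genes moved in both directions. Of 10 such genes listed 8 were tested, DUSP9 and DUSP19 having too few reads, and 1 fell and 3 rose (median log2 fold change -0.07). Among all genes tested 7.39% fell and 6.46% rose by the same test, and whether the list differs from these shares was not tested. DUSP7, whose product is a cytoplasmic ERK phosphatase close to DUSP6, fell: it was at 39.1, 41.0 and 36.1 CPM in controls and at 28.1, 29.6 and 24.9 CPM after lncSLCC1 siRNA (edgeR adjusted p = 0.0103 for a log2 fold change of -0.56, SE 0.107). DUSP16, whose product acts on JNK and p38 as that of DUSP10 does, rose from 54.6 ± 7.48 to 74.4 ± 4.13 CPM (SD, n = 3 each; edgeR adjusted p = 0.0385 for a log2 fold change of 0.38, SE 0.103). DUSP3, a small atypical phosphatase gene, rose from 89.6 ± 0.691 to 114 ± 5.60 CPM (edgeR adjusted p = 0.0448 for a log2 fold change of 0.27, SE 0.078). DUSP18, another atypical phosphatase gene, rose from 4.17 ± 1.03 to 8.19 ± 0.415 CPM (edgeR adjusted p = 0.0103 for a log2 fold change of 0.91, SE 0.173).

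The remaining 4 phosphatase genes tested did not pass. DUSP14 was at 55.9 to 68.3 CPM in controls and 48.2 to 52.7 CPM after lncSLCC1 siRNA (log2 fold change -0.33, adjusted p = 0.067 by edgeR). It was called lower in 5 of the 15 alternatives: by DESeq2 (adjusted p = 0.0432), with every gene of at least 1 read (0.0333), with GC content and length offsets (0.0123) and without control replicate 1 (0.021) or 3 (0.0194). DUSP2, a nuclear phosphatase gene related to DUSP1 and DUSP4, had a log2 fold change of -0.58 with a wide interval of -1.02 to -0.15 (adjusted p = 0.0733 by edgeR). DUSP8 and DUSP22 had log2 fold changes of -0.23 and 0.08, and DUSP8 has pseudogenes in the tables with which reads may be shared. Whether DUSP16 and DUSP10 differ from DUSP6 and DUSP7 in their response was not tested. The calls of DUSP7, DUSP18, DUSP16 and DUSP3 were lost without control replicate 2 or lncSLCC1 siRNA replicate 1 (adjusted p = 0.0544 to 0.15 by edgeR). Those of DUSP18, DUSP16 and DUSP3 were lost without lncSLCC1 siRNA replicate 2 (0.0598 to 0.192), and those of DUSP7, DUSP16 and DUSP3 without replicate 3 (0.0715 to 0.199). DUSP3 also missed the threshold with the replicate block (0.0789) and with every gene of at least 1 read (0.0593).

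**Figure D3:**
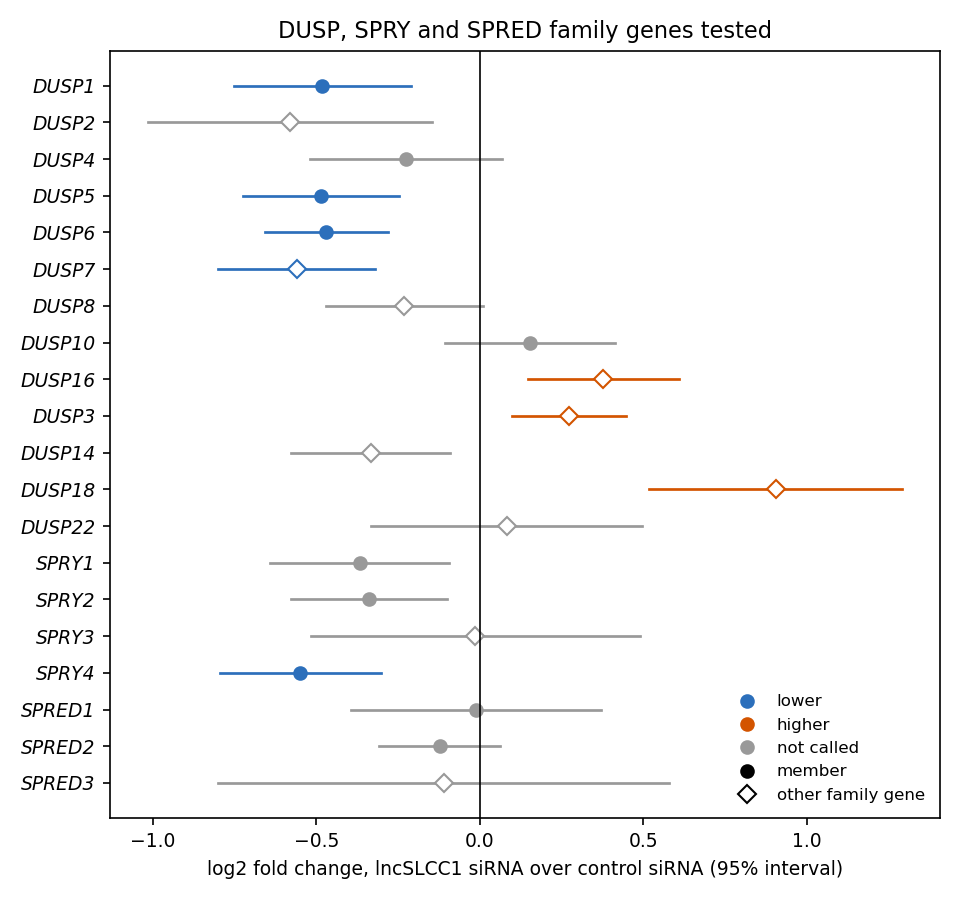
Log2 fold change with 95% confidence interval (horizontal axis) for the 20 DUSP, SPRY and SPRED genes tested, with filled circles for the 10 genes described and open diamonds for other family genes, coloured by call. DUSP1, DUSP5, DUSP6, DUSP7 and SPRY4 are lower, at -0.56 to -0.47, and DUSP3, DUSP16 and DUSP18 are higher, at 0.27 to 0.91.

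Further genes that restrain RAS or ERK were not called in either direction. All 14 listed were tested, with 0 lower and 0 higher by edgeR and 2 and 1 at an unadjusted p under 0.05 (median log2 fold change -0.05). Over all genes tested 7.39% were called lower and 6.46% higher, and 2489 and 2330 of 15242 had an unadjusted p under 0.05. With so few genes, these counts do not set the list apart from all genes. PEBP1, which encodes the RAF kinase inhibitor protein, had a log2 fold change of -0.24 (adjusted p = 0.105 by edgeR) and RGS2, a regulator of G-protein signalling, -0.57 (adjusted p = 0.11). LZTR1, an adaptor for degradation of RAS proteins, had -0.15, RASA1, a RAS GTPase-activating protein gene, 0.47, and IL17RD, whose product SEF restrains ERK at the receptor and Golgi, 0.26, with adjusted p-values of 0.112 to 0.23. SPRED3, at 1.67 CPM or less in every library, had -0.11. RASA1 was at 13.9 CPM in control replicate 1 against 24.5 to 32.5 CPM in the other 5 libraries, and its difference was called in 4 of the 15 alternatives: without control replicate 1 (adjusted p = 0.0299 by edgeR) or 3 (0.0454), with every gene of at least 1 read (0.0071) and with GC content and length offsets (0.0154). PEBP1 was called lower in the same 4 (0.0417, 0.0173, 0.0468 and 0.017), and LZTR1 with the offsets (0.0213). With library totals the median of this list was 0.023.

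ERK-induced transcription factors and targets, a list chosen with earlier results of these data known, were lower in 12 of 25 genes (48%) and higher in 0. The shares over all genes tested were 7.39% and 6.46%. The median log2 fold change of the list was -0.41. EGR1, the immediate early transcription factor gene, fell from 149 ± 12.2 to 64.5 ± 5.47 CPM (SD, n = 3 each; edgeR adjusted p = 0.000197 for a log2 fold change of -1.28, SE 0.102), to 43.2% of its control mean. The cyclin D1 gene CCND1 fell by 0.74 (SE 0.074), PHLDA2 by 0.99 (SE 0.123), the AP-1 subunit gene JUN by 0.84 (SE 0.118) and the ephrin receptor gene EPHA2 by 0.50 (SE 0.073), all on the log2 scale, and edgeR's adjusted p-values were 0.000457 to 0.00304. These 5 calls held in all 15 alternatives. The falls of EGR1, PHLDA2, JUN and CCND1 were larger than that of any of the 10 feedback genes; whether the sizes differ was not tested.

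Within the cascade itself 3 of 20 genes (15%) were lower and 0 higher, with a median log2 fold change of 0.04. Among all genes tested 7.39% were lower and 6.46% higher, and counts this small do not set the cascade apart. HRAS, which encodes a RAS protein, fell by 0.48 (SE 0.12) and the adaptor gene SHC1 by 0.30 (SE 0.080) on the log2 scale, with adjusted p-values by edgeR of 0.0294 and 0.0369. MAP2K1, which encodes MEK1, had a log2 fold change of -0.28 (adjusted p = 0.0543 by edgeR) and the scaffold gene KSR1 -0.36 (adjusted p = 0.0938). Both were called lower with GC content and length offsets (0.0045 and 0.025) and without control replicate 1 (0.0069 and 0.0401), and MAP2K1 by DESeq2 (0.0402). The ERK gene MAPK3 had 0.09 and did not pass the test. HRAS and SHC1 each lost the call without lncSLCC1 siRNA replicate 1, 2 or 3 (adjusted p = 0.083 to 0.161 by edgeR). HRAS and SHC1 lost it without control replicate 2 (0.0887 and 0.0914), and SHC1 also with library totals (0.0624), the replicate block (0.0675) and every gene of at least 1 read (0.0552).

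Upstream, 0 of 14 receptor and ligand genes tested were lower and 2 were higher, with a median log2 fold change of -0.10. The shares over all genes tested were 7.39% and 6.46%, and counts this small do not set the list apart. ERBB3, a receptor of the EGF family, rose from 112 ± 11.4 to 166 ± 1.299 CPM (SD, n = 3 each; edgeR adjusted p = 0.0075 for a log2 fold change of 0.50, SE 0.089). The ligand gene BTC rose from 2.71 ± 0.450 to 5.74 ± 1.09 CPM (edgeR adjusted p = 0.0143 for a log2 fold change of 1.01, SE 0.210). The ligand gene TGFA at 0.26 and the receptor genes FGFR4 and FGFR3 at -0.52 each did not pass (adjusted p = 0.0536, 0.0763 and 0.0809 by edgeR). TGFA was called higher in 5 of the 15 alternatives: with DESeq2 size factors (0.0493), library totals (0.019), a mean of at least 1 CPM (0.0476), GC content and length offsets (0.0185) and without control replicate 1 (0.0022). FGFR4 and FGFR3 were called lower with the offsets (0.0434 and 0.0364). Leaving out control replicate 3 moved the median of this list to -0.016, and leaving out lncSLCC1 siRNA replicate 3 moved it to -0.026. ERBB3 lost its call without lncSLCC1 siRNA replicate 2 (0.056) or 3 (0.0532), and BTC without control replicate 2 (0.0721) or lncSLCC1 siRNA replicate 1 (0.0726) or 3 (0.0709).

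In the p38 and JNK pathway, on which DUSP1, DUSP10 and DUSP16 act, 3 of 14 genes tested (21.4%) were lower and 0 higher (median log2 fold change -0.11). Among all genes tested 7.39% were lower and 6.46% higher, and whether the list differs from these shares was not tested. MAPKAPK2, a kinase activated by p38, fell by 0.71 (SE 0.097), MAPK13, a p38 isoform gene, by 0.67 (SE 0.093) and the p38-activating kinase gene MAP2K3 by 0.37 (SE 0.101) on the log2 scale, and edgeR's adjusted p-values were 0.00241 to 0.0393. MAPK14, which encodes the main p38 isoform, had a log2 fold change of 0.27 (adjusted p = 0.0811 by edgeR), and MAPK12 had -0.22. MAPK14 was called higher with GC content and length offsets (0.0167) and without control replicate 1 (0.026) or 3 (0.0401). The call of MAP2K3 was lost without control replicate 2 (0.14), without each lncSLCC1 siRNA library (0.131 to 0.158) and with library totals (0.0597).

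**Figure D4:**
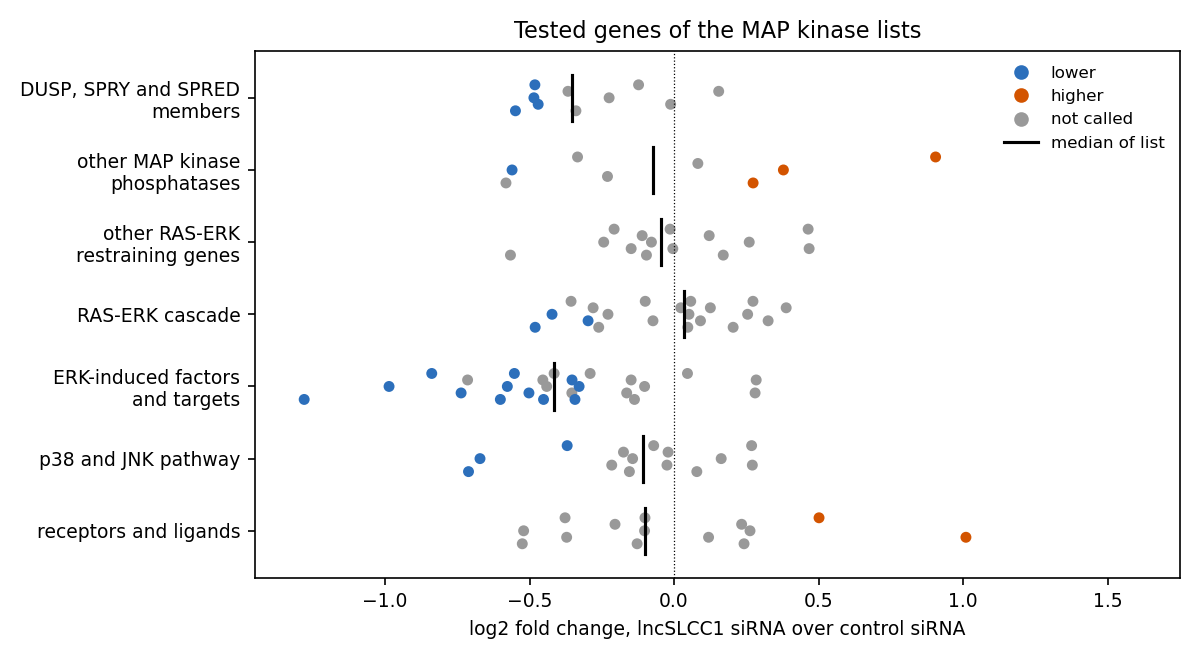
Log2 fold change (horizontal axis) of each tested gene in 7 lists (rows), coloured by call, with a black line at each list's median. The 10 DUSP, SPRY and SPRED genes have a median of -0.35 and the ERK-induced factors and targets -0.41, whereas the medians of the other 5 lists lie between -0.11 and 0.04. The lists were chosen with earlier results of these data known, and differences between them were not tested.

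The transcripts most like DUSP6, SPRY4 and SPRED2, the genes with the smallest p in their families, were searched for among 10339 genes with a mean of at least 5 CPM. Likeness was the root mean square difference of log2 CPM over the 6 libraries after each gene was centred on its own mean. Nearest to DUSP6 were RAD23B, a DNA repair gene, CDC23, a subunit gene of the anaphase-promoting complex, and RIC8B, at 0.036 to 0.04 log2 units. Nearest to SPRY4 were RPAP1, C19orf26 and the telomere protein gene TERF2, at 0.044 to 0.056. Nearest to SPRED2 were PPFIA1, HP1BP3 and TWSG1, at 0.017 to 0.028.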

How the data were processed

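RNA-seq was made from 6 libraries of DLD-1 cells, 3 with control siRNA and 3 with lncSLCC1 siRNA, grouped by their labels. For every library the authors deposited a table of raw counts by gene symbol. TopHat2 2.0.11 and HTSeq, with builds hg19 and GRCh37, are named per the submitters' processing notes. Strand setting and annotation release: not given in the sources used here. The lines that name no gene stayed out of library sizes. They took 5.42% to 7.58% (no feature), 8.83% to 10.1% (ambiguous) and 12.8% to 13.8% (not uniquely aligned).

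All genes were fitted with edgeR 4.0.16 (R 4.3.3; quasi-likelihood test, TMM, default expression filter, no covariate), with Benjamini-Hochberg adjustment over 15242 genes. CPM used library totals. Standard errors are the fold change over the root of F. Lengths and GC content came from the longest GENCODE release 29 transcript, with transcripts of its basic set taken before any other. Of tested genes 89.4% had one. Alternatives were DESeq2 1.42.0 and its size factors, limma-voom (limma 3.58.1), library totals, 2 other filters, robust empirical Bayes, the replicate block, GC content and length offsets (mgcv 1.9.3), and each library left out in turn. The fits were tested on simulated data, in which edgeR called 89 of 100 larger and 43 of 100 smaller planted changes, and 4 genes with none planted. The smaller changes were about as large as the falls of DUSP1, DUSP5, DUSP6 and SPRY4, so a difference of that size can be missed. The members and gene lists were chosen with earlier results of these data known. Besides the 10 members, the text names RP11-400N13.2, up to 5 genes with the smallest p from each other list, and the 3 genes of at least 5 CPM most like the leading member of each family; MAPK3, DUSP2, DUSP8, DUSP22, SPRY3, SPRED3, RASA2, NRAS and SHOC2 were added after their values were seen. Not every gene picked in this way is reported here.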

Additional observations from a re-analysis of the deposited data

How the results depend on the processing

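The 4 calls among the 10 genes were made in the same number with DESeq2 size factors, library totals, either other filter, DESeq2, limma-voom, robust empirical Bayes and the replicate block, and in 6 with GC content and length offsets. Leaving out 1 library gave 0 to 7 members called lower. Over all genes such fits called 244 to 2431 lower and 213 to 2112 higher, and over the 6 other lists 8 to 30 lower and 1 to 11 higher, against 19 and 5 with all libraries. GC content and length offsets gave 2665 lower and 1960 higher genes, with 41 and 9 in the lists. Keeping every gene with a read gave 1600 higher genes, with 9 in the lists. With library totals 63.9% of calls were higher (1442 higher, 814 lower), against 46.6% (984 higher, 1126 lower). The SPRED1 log2 fold change turned positive with library totals (0.052), limma-voom (0.021), the replicate block (0.018), and without control replicate 2 (0.034) or 3 (0.154) or lncSLCC1 siRNA replicate 3 (0.03). The cascade median turned to -0.13 with GC content and length offsets and -0.092 without control replicate 1, and that of the other phosphatases to 0.215 and 0.083 without control replicates 1 and 3; the cause was not tested. With 1 library left out these medians ran from -0.092 to 0.026 and from -0.111 to 0.215, and SPRED1 from -0.21 to 0.154. Replicate numbers share only a number: deviations of same-numbered libraries correlated at 0.11, -0.0029 and -0.009 for numbers 1, 2 and 3, over 15242 genes, and not every library correlated best with its own number. The replicate block called 1059 lower and 993 higher genes. Depth was 73 to 111 reads per library for DUSP4 and 1476 to 2648 for DUSP6. The widest interval was that of SPRED1 (SE 0.172), which has more reads than DUSP4 (SE 0.132).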

Other observations

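Several genes of the RAS-ERK lists that were not called resembled SPRED1 in being low in control replicate 1. RASA2, which encodes a RAS GTPase-activating protein, had 7.93 CPM in control replicate 1, 24.5 and 26.0 CPM in the other controls, and 27.5 to 28.4 CPM after lncSLCC1 siRNA. SHOC2, a RAF-activating scaffold gene, was at 18.7 CPM in control replicate 1 and at 34.9 to 39.4 CPM in the other 5 libraries. NRAS was at 61.9 CPM in control replicate 1 and at 97.8 to 109 CPM in the others. These 3 genes were picked after their values were seen, and what sets control replicate 1 apart was not tested.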
